A study of Rattus norvegicus with 6 samples.

Results

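Respiratory chain and ATP synthase genes encode the machinery of the inner mitochondrial membrane that turns the energy of nutrients into ATP. Their members here are all genes whose symbol in the array platform's annotation begins with Nduf and a, b, c, s or v, is Sdha, Sdhb, Sdhc or Sdhd, or begins with Uqcr, Cox4 to Cox8 or Atp5. The pattern found 92 array rows for 80 genes among the 14506 genes with a symbol of their own. Where a gene had several rows, the row with the highest mean over the 6 arrays stood for it, as it did for all other genes. Of the 80 genes, 34 belong by name to complex I, 3 to the complex I assembly factors, 4 to complex II, 7 to complex III, 16 to complex IV and 16 to the ATP synthase.

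The data are expression levels in the ileum (the distal stretch of small intestine) of 6 Zucker fa/fa rats, an obese strain in which both copies of the leptin receptor gene are defective. A duodenum-jejunum bypass (DJB), in which food skips the duodenum and the first stretch of jejunum, was done in 3 rats, and the other 3 had a sham operation that cut and rejoined the gut so that food kept its normal course. All were 20 weeks old at surgery and were killed 14 days later. RNA of each rat's whole ileal tissue was hybridised to 1 Affymetrix rat whole-transcript array, and the levels are log2 values after RMA normalisation. All rats, controls included, carried fa/fa, so the comparison says nothing about rats with a working leptin receptor.

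Complex I (NADH dehydrogenase) and complex II (succinate dehydrogenase) pass electrons from food to coenzyme Q, complex III hands them to cytochrome c, and complex IV (cytochrome c oxidase) gives them to oxygen. The proton gradient that complexes I, III and IV build drives the ATP synthase, a rotary enzyme with a catalytic F1 head, a ring of c subunits in the membrane and a peripheral stalk that holds the head still. In the gut, absorbing enterocytes are rich in mitochondria. Subunits encoded in mitochondrial DNA are not matched by the pattern and were not analysed here.

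Over all 6 arrays, the median showed no shift of the chain as a whole after DJB. Without sham rat 3 it was -0.06 on the log2 scale, beside 0.05 over all genes tested. With all 6 arrays the median difference of the 80 genes, DJB minus sham, was 0.01, beside 0.05 over all genes tested. Of the 80, 41 were higher (51.3%, beside 61.7% of all genes) and 39 lower. The differences ran from -0.49 for Ndufa6 to 0.56 for Ndufb6, so no gene of the chain differed by as much as 1.5-fold between the group means. None of the 80 passed limma's adjusted threshold of 0.05, where 0.772% of all genes did, 0.393% higher and 0.379% lower. At an unadjusted p under 0.05, limma found 13 of the 80 (16.3%), beside 14.3% of all genes. These were 4 higher genes (5.0%), beside 9.82% of all genes, and 9 lower genes (11.3%), beside 4.45% of all genes. In 24 genes (30.0%) the 3 DJB values and the 3 sham values did not overlap, beside 21.1% of all genes, 11 with DJB higher (14.5% of all genes) and 13 with DJB lower (6.56% of all genes). The chain is brighter than most genes: among genes at or above the median of all rows, which hold 74 of the 80, 16.2% of the members and 18.0% of all such genes had an unadjusted limma p under 0.05, and 31.1% and 27.0% did not overlap. By direction, 4.05% of these members were higher and 12.2% lower at that p, beside 11.7% and 6.26% of all such genes. Without overlap, 13.5% were higher and 17.6% lower, beside 17.9% and 9.11%.

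**Figure D1:**
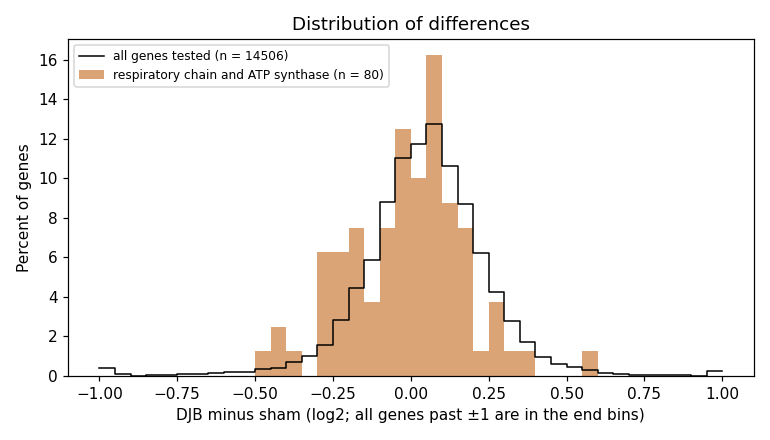
Percent of genes (vertical axis) by difference between DJB and sham in bins on the log2 scale (horizontal axis), for the 80 respiratory chain and ATP synthase genes (bars) and all 14506 genes tested (line). The bars lie between -0.49 and 0.56 around a median of 0.01, while the line has tails on both sides.

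The absence of calls comes with a stated precision. The median SE of a member's difference was 0.10 from 3 arrays per group, and for 69 of the 80 genes the 95% confidence interval of the difference lay wholly within 1.5-fold in either direction (86.3%, beside 86.9% of all genes). The intervals of the other 11 reached past it: those of Ndufb6, Ndufa6, Ndufs5, Ndufa1, Ndufa10, Ndufaf1, Cox7a2l, Cox5a, Cox5b, Cox6c-ps1 and Atp5mc1. RMA equalises the distributions of the arrays, so a shift shared by most genes of the tissue would not be seen. In whole tissue, fewer cells of a type and less RNA per cell cannot be told apart.

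**Figure D2:**
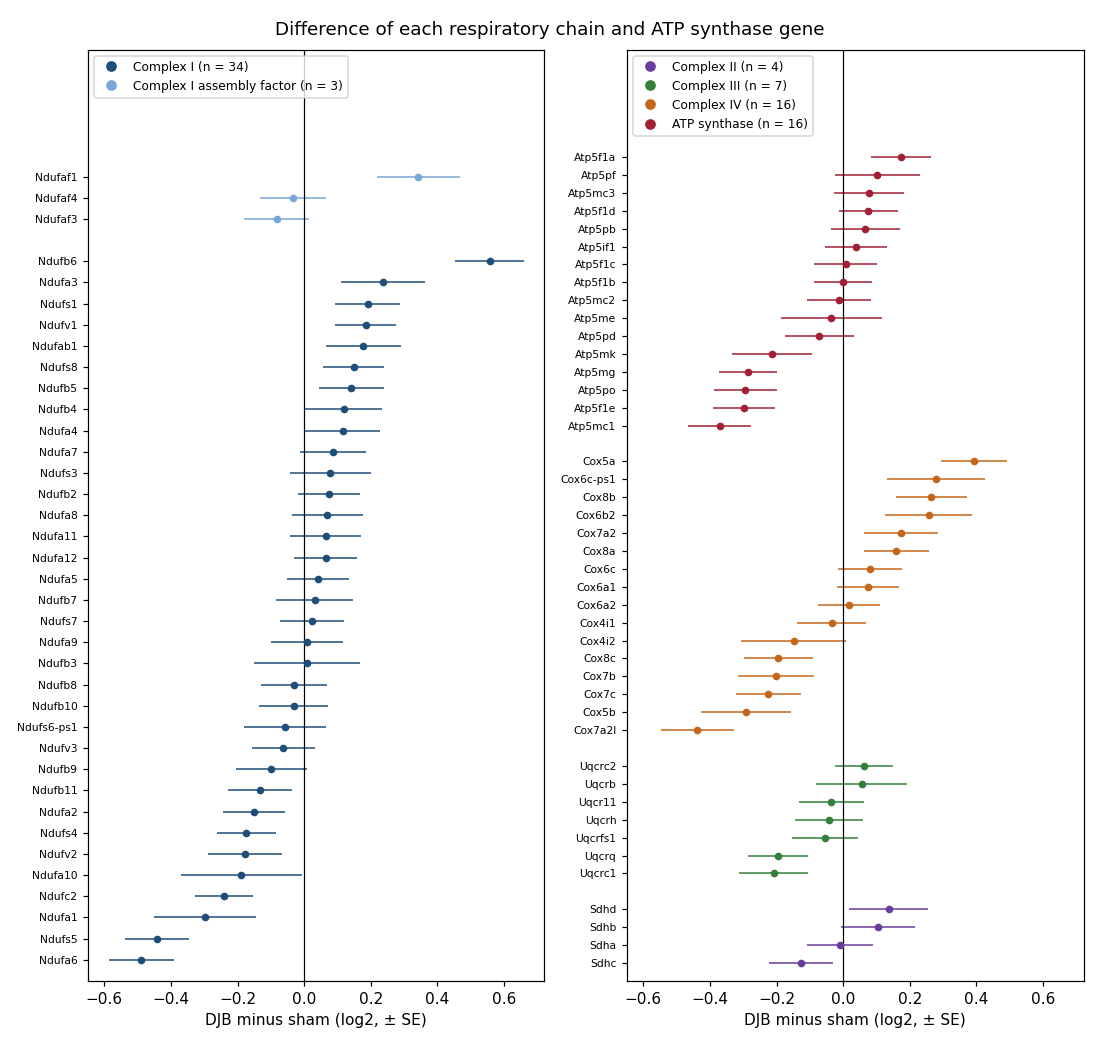
Difference between DJB and sham (horizontal axis, log2) for each of the 80 genes, with bars of 1 SE from the limma fit (3 arrays per group), grouped by complex. Within complexes I and IV and the ATP synthase the points spread to both sides of 0, from -0.49 for Ndufa6 to 0.56 for Ndufb6.

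The level of the chain varied more between the sham rats than between the groups. Averaged over the 80 genes, the level was 9.65, 9.60 and 9.49 in sham rats 1 to 3 and 9.61, 9.54 and 9.54 in DJB rats 1 to 3. Sham rat 3 had the lowest of the 6 values in 38 of the 80 genes (47.5%), beside 20.3% of all genes, and the lowest of the 3 sham values in 58 (72.5%), beside 31.9% of all genes. Complex II gives the pattern most plainly, with mean levels of 10.93, 10.97 and 10.73 in the sham rats and 10.97, 10.88 and 10.85 in the DJB rats. Without sham rat 3 the median difference of the 80 genes was -0.06, with 32 higher, and 2 genes were higher and 13 lower at an unadjusted p under 0.05, beside 7.49% and 3.16% of all genes.

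**Figure D3:**
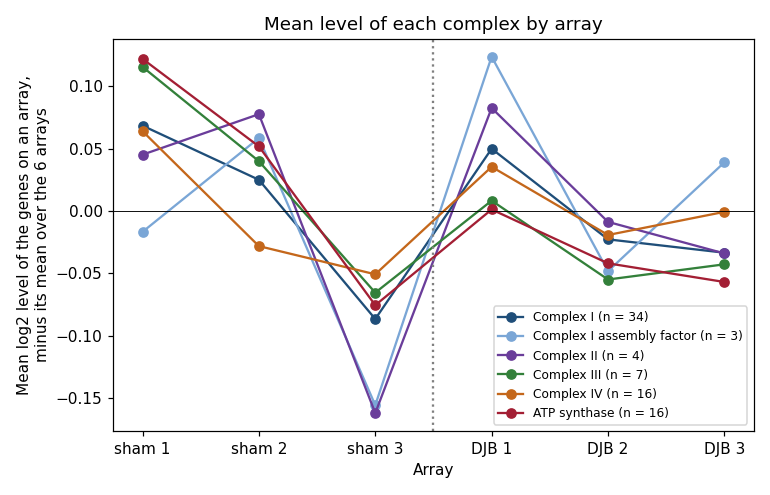
Mean log2 level of the genes of each complex on each array, minus the mean of that complex over the 6 arrays (vertical axis), with the sham arrays left of the dotted line. Sham rat 3 is the lowest of the 6 arrays in all 6 groups of genes.

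The tissue carried the markers its label calls for. All 11 enterocyte markers measured had mean sham levels above the median of all rows, 6.11, and their mean level was 12.03, 12.11 and 12.38 in the sham rats and 12.35, 12.45 and 12.31 in the DJB rats. Of these, 1 gene, the bile acid transporter gene Slc10a2, was called higher (1.73, limma adjusted p = 0.0106), beside 0.393% of all genes. In 5 of the 11 (45.5%) the groups did not overlap, 4 higher and 1 lower, beside 21.1% of all genes. At an unadjusted limma p under 0.05, 3 were higher (27.3%, beside 9.82% of all genes) and 0 lower (beside 4.45%). Alpi, the intestinal alkaline phosphatase gene, lay at 9.79, 9.23 and 11.51 in the sham rats, so sham rat 3 was far above the others. Without Slc10a2 and Alpi, a choice made after seeing the values, the mean of the other 9 was 12.52, 12.61 and 12.65 in sham and 12.64, 12.66 and 12.68 after DJB. The 9 smooth muscle markers had mean levels from 9.34 to 9.74 in sham and from 9.57 to 9.80 after DJB. Mean levels of the 6 markers of dividing cells ran from 8.27 to 8.39 in sham and from 8.58 to 8.90 after DJB. All 6 were higher after DJB, beside 61.7% of all genes. In 5 of them (83.3%) the groups did not overlap with DJB higher, beside 14.5% of all genes. Of the 6, 1, Ccnb1, passed the adjusted threshold (0.60, limma adjusted p = 0.0497), beside 0.393% of all genes called higher. Lists of 7 T cell markers (from 7.40 to 7.61 in sham, from 7.33 to 7.96 after DJB), 7 macrophage markers (from 7.92 to 8.01, and from 7.99 to 8.28) and 5 B and plasma cell markers (from 7.10 to 7.90, and from 6.33 to 7.61) held no gene past it, and 1, 3 and 1 of them in that order had an unadjusted limma p under 0.05 (14.3%, 42.9% and 20.0%, beside 14.3% of all genes). All 7 T cell markers and 6 of the 7 macrophage markers were higher, with medians of 0.16 and 0.22, where 61.7% of all genes were higher. All 5 B and plasma cell markers were lower, from -1.08 to -0.18, with a median of -0.73. The part of the cell mixture in the values of the chain was not tested.

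In complex I, 20 subunits were higher (58.8%, beside 61.7% of all genes) and 14 lower after DJB, with a median of 0.03. Of these, 6 and 5 had groups that did not overlap (17.6% and 14.7%, beside 14.5% and 6.56% of all genes). Ndufb6, an accessory subunit of the membrane arm, lay at 8.69, 8.75 and 8.52 in sham rats 1 to 3 and at 9.31, 9.15 and 9.17 in DJB rats 1 to 3. Every DJB value was above every sham value, by more than the range within either group. The difference was 0.56 ± 0.10 (SE), a 1.47-fold higher level (limma adjusted p = 0.0509, unadjusted p = 0.0004), just short of the threshold. None of the other 9 NDUFB subunits measured came near it: their differences ran from -0.13 for Ndufb11 to 0.14 for Ndufb5, which lay at 11.25 in sham and 11.39 after DJB.

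Ndufa6, an accessory subunit at the foot of the matrix arm, went the other way. It lay at 8.77, 8.87 and 8.90 in sham and at 8.24, 8.40 and 8.43 after DJB, with no overlap. Its difference was -0.49 ± 0.10 (SE) (limma adjusted p = 0.0682), a level 1.40-fold lower. Taken as a ratio within each array, Ndufb6 over Ndufa6 was -0.08, -0.12 and -0.38 on the log2 scale in sham and 1.07, 0.75 and 0.73 after DJB, a shift of 1.05. This pair was picked for its opposite directions, so the shift describes it and tests nothing.

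Ndufs5, a small subunit of the space between the mitochondrial membranes, had sham levels of 9.46, 9.25 and 9.42. The 3 DJB levels were 8.94, 8.94 and 8.94, below all of these. The difference of -0.44 ± 0.10 (SE) had a limma adjusted p of 0.0948, and a second array row of the gene showed -0.32. Ndufc2, a membrane arm subunit, lay at 10.77, 10.78 and 10.76 in sham and 10.49, 10.57 and 10.53 after DJB, a difference of -0.24 ± 0.09 (SE) (limma adjusted p = 0.259).

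The catalytic core of complex I, which carries the flavin and the iron-sulfur clusters, was measured through 6 subunits. Of these, 5 were higher after DJB (83.3%, beside 61.7% of all genes). Ndufv1, which binds the flavin and NADH, lay at 10.64 ± 0.03 (SD, n = 3) in sham and 10.83 ± 0.09 (SD, n = 3) after DJB, and its groups did not overlap. The cluster subunit Ndufs1 differed by 0.19 ± 0.10 (SE) and Ndufs8 by 0.15 ± 0.09 (SE), likewise without overlap. Ndufs3 (0.08) and Ndufs7 (0.02) differed by less than their SE. Ndufv2, the partner of Ndufv1, was the exception at -0.18 ± 0.11 (SE), with sham values of 10.21, 10.22 and 9.93 and DJB values of 9.85, 9.98 and 10.01 that overlapped. None of the 6 passed the adjusted threshold (limma adjusted p from 0.410 to 0.936).

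Ndufa10, a subunit of the membrane arm, had the widest spread in the DJB group. It lay at 6.53, 6.56 and 6.59 in sham but at 6.85, 6.14 and 6.11 after DJB, so that DJB rat 1 stood above all sham rats and the others below. Ndufa4 carries a complex I name but is now assigned to complex IV, and its difference was 0.12 ± 0.11 (SE). The row named Ndufs6-ps1 is annotated as a pseudogene in RefSeq, and whether its signal comes from Ndufs6 itself cannot be told apart here. Ndufs6 was not analysed here.

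Assembly factors build complex I without staying in it. Ndufaf1, a chaperone of the membrane arm, lay at 7.71, 7.95 and 7.55 in sham and 8.21, 7.98 and 8.05 after DJB. DJB rat 2 was barely above sham rat 2, and the other DJB rats were clear of the sham range. The difference was 0.34 ± 0.12 (SE) (limma adjusted p = 0.259). Ndufaf3 (-0.08 ± 0.10) and Ndufaf4 (-0.03 ± 0.10) differed by less than their SE.

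Complex II, whose Sdha and Sdhb subunits oxidise succinate and whose Sdhc and Sdhd subunits anchor them in the membrane, differed little between the groups. Sdha, the flavoprotein, lay at 10.70 ± 0.11 (SD, n = 3) in sham and 10.69 ± 0.05 (SD, n = 3) after DJB. Sdhb, the iron-sulfur subunit, differed by 0.10 ± 0.11 (SE), Sdhd by 0.14 ± 0.12 (SE) and Sdhc by -0.13 ± 0.10 (SE). The groups overlapped in all 4 genes, and the intervals of all 4 lay within 1.5-fold.

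In complex III, 2 of 7 subunits were higher after DJB (28.6%, beside 61.7% of all genes) and 5 lower. The median was -0.04 and differences ran from -0.21 to 0.06. Uqcrc1, a core subunit on the matrix side, lay at 10.48, 10.35 and 10.18 in sham and 10.10, 10.11 and 10.17 after DJB, which placed sham rat 3 next to the DJB rats. Its difference of -0.21 ± 0.10 (SE) did not pass (limma adjusted p = 0.406). Uqcrc2, the other core subunit, differed by 0.06 ± 0.09 (SE), with values that did not overlap but lay close, at 11.02 ± 0.02 (SD, n = 3) and 11.08 ± 0.04 (SD, n = 3). Uqcrq, a small subunit, differed by -0.20 ± 0.09 (SE), also without overlap. The Rieske iron-sulfur protein gene Uqcrfs1 differed by -0.05 ± 0.10 (SE) and Uqcrb by 0.06 ± 0.14 (SE).

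Complex IV had 9 genes higher (56.3%, beside 61.7% of all genes) and 7 lower, with a median of 0.05. Cox5a, a subunit on the matrix side, lay at 11.09, 11.02 and 10.85 in sham and 11.44, 11.35 and 11.36 after DJB, with no overlap. The difference was 0.39 ± 0.10 (SE), a 1.31-fold higher level (limma adjusted p = 0.134), and another array row of Cox5a gave 0.42. Its neighbour in the complex, Cox5b, lay at 10.45, 10.18 and 10.00 in sham and 9.76, 9.95 and 10.04 after DJB, with sham rat 3 inside the DJB range. Cox5b differed by -0.29 ± 0.13 (SE). The ratio of Cox5a to Cox5b within an array was 0.64, 0.84 and 0.85 in sham and 1.68, 1.39 and 1.32 after DJB on the log2 scale, again a pair chosen for its opposite directions.

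Cox7a2l, a relative of the Cox7a subunits that joins complex III and complex IV in supercomplexes, lay at 10.60, 10.39 and 10.71 in sham and 10.06, 10.20 and 10.12 after DJB. All DJB values were below all sham values. The difference was -0.44 ± 0.11 (SE), a 1.35-fold lower level (limma adjusted p = 0.131). Cox7a2 itself, the form found in most tissues, differed by 0.17 ± 0.11 (SE). Cox7c, a small membrane subunit, lay at 11.19 ± 0.12 (SD, n = 3) in sham and 10.97 ± 0.05 (SD, n = 3) after DJB, without overlap (limma adjusted p = 0.346).

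Several complex IV subunits come in a form used by most tissues and another restricted to heart and skeletal muscle, testis or lung. Of the common forms, Cox4i1 differed by -0.03 ± 0.10 (SE), Cox6a1 by 0.07 ± 0.09 (SE) and Cox8a by 0.16 ± 0.10 (SE). The restricted forms Cox4i2, Cox6a2, Cox6b2, Cox8b and Cox8c all had levels under the median of all rows, from 4.44 to 5.84 in sham. Among them the muscle form Cox8b lay at 4.60, 4.88 and 4.79 in sham and 4.98, 4.96 and 5.12 after DJB, a difference of 0.26 ± 0.11 (SE) (limma adjusted p = 0.311). The 8 markers of skeletal or heart muscle had mean levels from 5.62 to 5.83 in sham and from 5.82 to 5.91 after DJB. These means hide single genes that differed. Acta1 lay at 7.75, 7.69 and 7.62 in sham and 8.20, 8.16 and 8.62 after DJB, without overlap. Its difference was 0.64 ± 0.13 (SE) (limma adjusted p = 0.0782). Myl2 went the other way at -0.15 ± 0.10 (SE), also without overlap, and in the other markers the groups overlapped. Acta1 and Myl2 were picked after their values were seen. The part of these markers in the value of Cox8b was not tested. Cox4i2, the form favoured at low oxygen, differed by -0.15 ± 0.16 (SE), the testis form Cox6b2 by 0.26 ± 0.13 (SE) and the muscle form Cox6a2 by 0.02 ± 0.09 (SE). The pseudogene row Cox6c-ps1, at 3.90 in sham, differed by 0.28 ± 0.15 (SE), and Cox6b1 and Cox7a1 were not analysed here.

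In the ATP synthase, 7 genes were higher (43.8%, beside 61.7% of all genes) and 9 lower, with a median of -0.01. The 4 genes at an unadjusted limma p under 0.05 were all lower (4 of 16, beside 4.45% of all genes lower and 9.82% higher). The F1 head is built from alpha and beta subunits around a central stalk. Atp5f1a, the alpha subunit, lay at 12.48, 12.48 and 12.36 in sham and 12.59, 12.61 and 12.63 after DJB, a difference of 0.17 ± 0.09 (SE) without overlap (limma adjusted p = 0.422). Atp5f1b, the catalytic beta subunit, lay at 12.57 in both groups, with SDs of 0.05 and 0.02 (n = 3 each). The gamma subunit gene Atp5f1c lay at 8.11 in sham and 8.12 after DJB. Atp5f1e, the small epsilon subunit of the stalk, lay at 10.33, 10.28 and 10.16 in sham and 9.95, 9.98 and 9.94 after DJB, all lower, a difference of -0.30 ± 0.09 (SE) (limma adjusted p = 0.198).

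The membrane ring of the ATP synthase is made of c subunits, and the genes Atp5mc1, Atp5mc2 and Atp5mc3 all encode the same mature c protein behind different import signals. Atp5mc1 lay at 10.43, 10.47 and 10.29 in sham and 9.97, 10.08 and 10.03 after DJB, with no overlap. Its difference was -0.37 ± 0.09 (SE), a 1.29-fold lower level (limma adjusted p = 0.140). The levels of Atp5mc2 were 11.23, 11.10 and 11.02 in sham and 11.11, 11.11 and 11.10 after DJB, a difference of -0.01 ± 0.10 (SE). Atp5mc3 differed by 0.08 ± 0.10 (SE), although its other array row gave -0.12. Within an array, Atp5mc1 relative to Atp5mc3 was -1.07, -0.97 and -0.97 in sham and -1.62, -1.38 and -1.36 after DJB on the log2 scale, and the pair was chosen after these values were seen.

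The upstream sequences of these 3 genes are shown because the genes share a product but not a promoter. Each line gives the 130 bases before the start of the gene on its own strand, from RefSeq on build GRCr8, in lower case, with motif letters in capitals. The letters searched, on both strands, were the palindrome of the factor NRF1 (the 10 capitals of the Atp5mc2 line), CCGGAAG for GABP and other ETS factors, AAGGTCA for the core site of the estrogen-related receptors and AAGATGGC for YY1, factors known for acting on respiratory chain genes. None of the 4 sets of letters overlaps another in these lines.
Atp5mc1, chr10:81523346-81523475, minus strand: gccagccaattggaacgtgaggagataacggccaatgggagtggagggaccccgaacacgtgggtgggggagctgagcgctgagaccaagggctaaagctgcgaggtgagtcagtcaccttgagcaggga
Atp5mc2, chr7:135678219-135678348, minus strand: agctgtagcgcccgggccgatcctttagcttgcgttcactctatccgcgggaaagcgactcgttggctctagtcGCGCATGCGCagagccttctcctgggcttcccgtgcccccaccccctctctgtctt
Atp5mc3, chr3:79220665-79220794, minus strand: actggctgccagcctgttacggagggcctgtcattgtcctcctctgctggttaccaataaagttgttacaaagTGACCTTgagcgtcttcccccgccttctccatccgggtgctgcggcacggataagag
The Atp5mc2 line holds the NRF1 letters from 56 bases before the start, the Atp5mc3 line holds the core site on the other strand from 57 bases before the start, and the Atp5mc1 line holds none of the letters searched.

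Over the whole RefSeq promoter window, 250 bases before to 50 after the start, 70 of the 80 genes had an entry. The NRF1 letters stood in 5 of the 70 (7.14%), beside 0.852% of all 33469 promoters. These are all promoters with an entry, not limited to the genes tested here, so each comparison is between unlike sets. Whether any gap is particular to the chain was not tested. The GABP letters stood in 21 (30.0%, beside 8.75%), the core site in 10 (14.3%, beside 4.61%) and the YY1 letters in 13 (18.6%, beside 3.17%). The 5 genes with the NRF1 letters were Atp5mc2, Atp5me, Atp5po, Ndufa11 and Ndufaf4, and their differences ran from -0.29 to 0.06. Median differences with and without the letters were -0.03 and 0.009 for NRF1 and 0.03 and 0.007 for GABP. They were 0.08 and 0.003 for the core site and -0.04 and 0.02 for YY1. A match describes letters only and does not show a bound site.
Atp5po, chr11:44657484-44657613, minus strand: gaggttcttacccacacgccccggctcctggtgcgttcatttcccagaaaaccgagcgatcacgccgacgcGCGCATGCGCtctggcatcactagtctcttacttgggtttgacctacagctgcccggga
Ndufa11, chr9:1637484-1637613, plus strand: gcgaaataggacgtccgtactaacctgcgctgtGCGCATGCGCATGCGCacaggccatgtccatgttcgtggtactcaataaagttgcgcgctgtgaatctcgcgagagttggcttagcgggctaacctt
These lines show how the NRF1 letters lie at both ends of that range: Atp5po carries them from 59 bases before the start and had a difference of -0.29, while Ndufa11 carries a pair that overlap, from 97 and 91 bases before the start, and had one of 0.06. Neither gene passed the adjusted threshold.

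Atp5po, the stalk subunit that ties the peripheral stalk to the head, lay at 10.63, 10.45 and 10.52 in sham and 10.28, 10.26 and 10.18 after DJB. All DJB values were below all sham values, a difference of -0.29 ± 0.09 (SE) (limma adjusted p = 0.214). The other stalk genes Atp5pb (0.07), Atp5pd (-0.07) and Atp5pf (0.10) differed by less than their SE. Atp5mg, the membrane subunit g, which helps synthase dimers to form, lay at 8.13, 8.09 and 8.12 in sham and 7.87, 7.81 and 7.81 after DJB. Its difference of -0.29 ± 0.09 (SE) was large beside SDs of 0.02 and 0.04 (n = 3 each) but did not pass across all genes (limma adjusted p = 0.191). Atp5if1, which inhibits the enzyme when the gradient fails, differed by 0.04 ± 0.09 (SE).

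**Figure D4:**
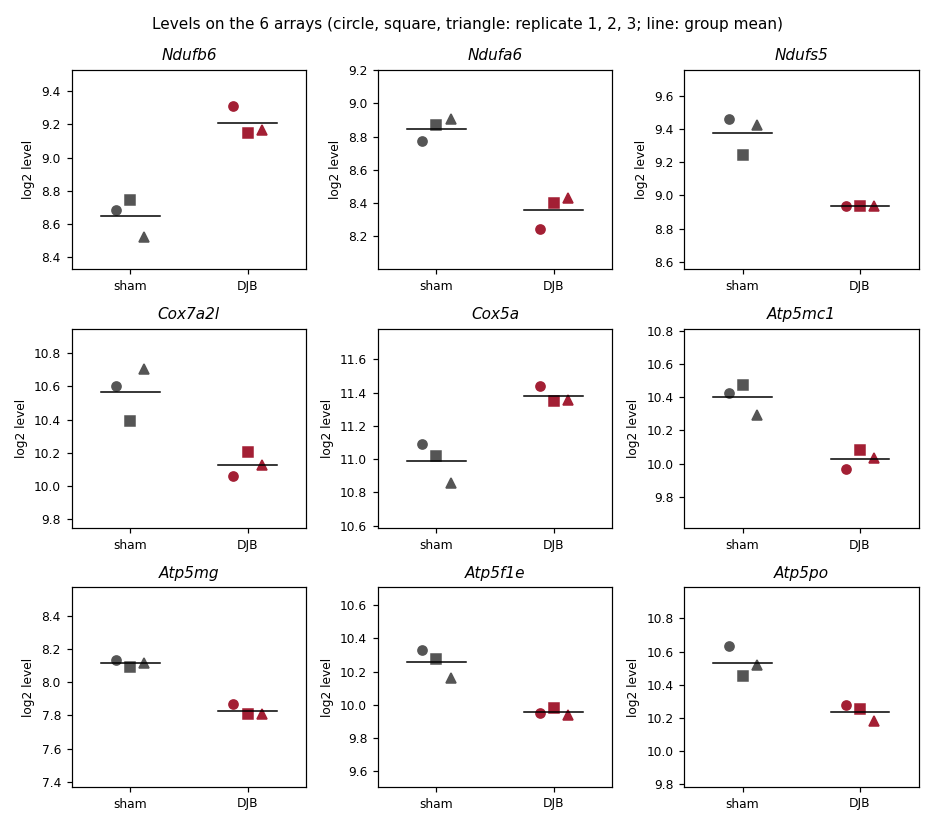
Log2 level (vertical axis) on each of the 6 arrays for the 9 genes of lowest unadjusted p, with each panel spanning the same height. In every panel the 3 DJB values lie wholly above (Ndufb6, Cox5a) or wholly below (the other 7) the 3 sham values.

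For a single gene an exact two-sided permutation test of 3 against 3 arrays cannot go below p = 0.1, and each gene without overlap reached that value. The calls depended on how the spread was modelled, on which genes were tested and on whether the arrays were centred. With an intensity trend and robust moderation in limma, 6 of the 80 genes passed, beside 2.16% of all genes: Ndufb6 higher (adjusted p = 0.00902), Ndufa6 lower (0.0159), Ndufs5 lower (0.0228), Cox5a higher (0.0276), Cox7a2l lower (0.0327) and Atp5mc1 lower (0.0373). With dim rows left out, Ndufb6, Ndufa6 and Ndufs5 passed in limma (adjusted p = 0.0195, 0.0265 and 0.0368), beside 2.55% of the genes then tested. With each array centred on its median, Ndufb6 alone passed (limma adjusted p = 0.0395), beside 0.869% of all genes.

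Genes that serve the chain without being matched by the pattern were looked up in lists of related genes. Electron carriers and assembly factors of the complexes were measured for 28 genes. Of these, 18 were higher (64.3%, beside 61.7% of all genes), with a median difference of 0.05 and 0 past the adjusted threshold. At an unadjusted p under 0.05 in limma, 5 were higher (17.9%, beside 9.82% of all genes) and 0 lower (beside 4.45%). Cox15, which makes the heme of complex IV, lay at 8.68, 8.79 and 8.67 in sham and 9.00, 9.03 and 9.06 after DJB, a difference of 0.32 ± 0.09 (SE) (limma adjusted p = 0.167). Cox18, which inserts a complex IV subunit into the membrane, differed by 0.25 ± 0.09 (SE). Of 12 coenzyme Q synthesis genes, 6 were higher, with a median of 0.02, led by Coq2 (0.29 ± 0.10) and Coq6 (0.16 ± 0.09).

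Regulators of mitochondrial biogenesis were measured for 19 genes, 11 higher (57.9%, beside 61.7% of all genes) and 8 lower, with a median of 0.01. Past the adjusted threshold were 0 (4 at an unadjusted p under 0.05 in limma, 21.1% beside 14.3% of all genes). Ppargc1a, which encodes the coactivator PGC-1alpha, lay at 7.68, 7.35 and 7.19 in sham and 6.84, 6.71 and 5.80 after DJB, all lower. The difference was -0.96 ± 0.25 (SE) (limma adjusted p = 0.152), wider than that of any gene of the chain, and DJB rat 3 was well below the others. Its partner receptor gene Esrra differed by -0.27 ± 0.10 (SE), without overlap. The mitochondrial transcription factor genes Tfb1m (0.42 ± 0.13) and Tfb2m (0.31 ± 0.11) were higher without overlap, and Tfam, which packages mitochondrial DNA, differed by 0.19 ± 0.10 (SE). Ppargc1b and Nrf1 differed by less than their SE.

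Among 22 general markers of mitochondrial mass, 13 were higher (59.1%, beside 61.7% of all genes) and 9 lower, with a median of 0.08. Past the threshold were 0 (6 at an unadjusted p under 0.05 in limma, 27.3% beside 14.3% of all genes). The import receptor gene Tomm20 lay at 9.16, 9.18 and 9.09 in sham and 8.85, 8.69 and 8.57 after DJB, a difference of -0.44 ± 0.10 (SE). Hspe1, the co-chaperonin of the mitochondrial matrix, went the other way at 0.49 ± 0.13 (SE). Of 13 uncoupling and antioxidant genes 9 were higher (69.2%, beside 61.7% of all genes), with a median of 0.06, led by the peroxiredoxin gene Prdx3 (0.27 ± 0.10) and Gpx4 (0.24 ± 0.13).

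**Figure D5:**
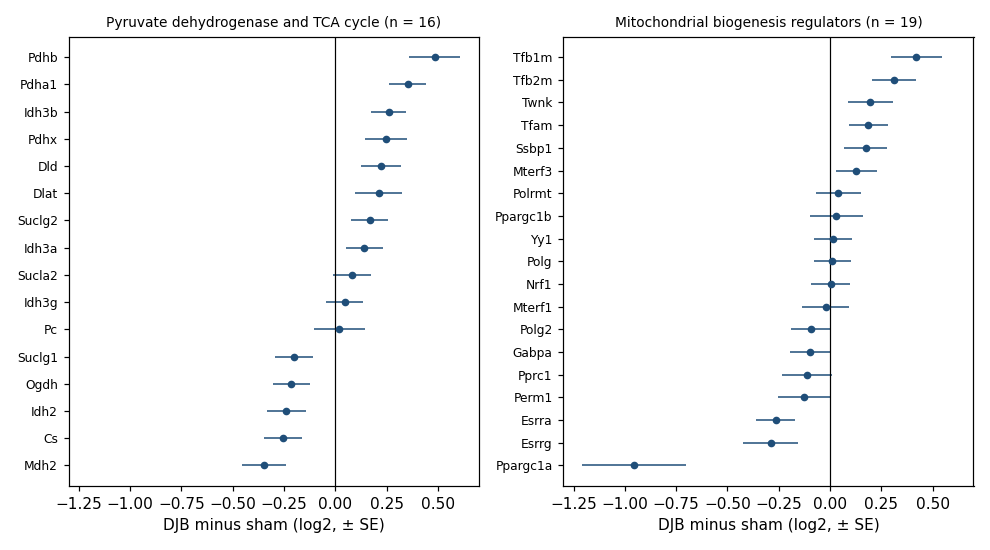
Difference between DJB and sham (horizontal axis, log2) with bars of 1 SE (3 arrays per group). On the left are 16 genes of pyruvate dehydrogenase, the TCA cycle and pyruvate carboxylase (Pc). On the right are 19 regulators of mitochondrial biogenesis. No gene in either panel passed the adjusted threshold, and Ppargc1a lies farthest from 0 at -0.96.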

How the data were processed

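Per the labels, ileal RNA of 3 sham and 3 DJB rats, numbered as biological replicates, was hybridised to 1 array each. The deposited table holds log2 values, 29214 rows by 6 arrays, made by the authors with RMA (no version given), per the submitters' processing notes; RMA corrects background, normalises quantiles between arrays and summarises probes. These values were used as deposited. Array medians ran from 6.08 to 6.19, and arrays correlated at 0.987 to 0.993 over all rows. The number of arrays limits the precision.

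Rows were named through the platform annotation: 15310 carried 1 symbol, 323 several and 13581 none, and only the first kind was tested, with the row of highest mean for each of 14506 genes. All 80 members matched RefSeq (GRCr8) by gene ID under the same symbol, and 1 further row that names a member with another gene was left out. Rows were not checked for signal from pseudogene copies, which many of these genes have.

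DJB minus sham was tested on all genes with limma 3.58.1 (lmFit, eBayes) in R 4.3.3, two-sided, with Benjamini-Hochberg adjustment and a threshold of 0.05. The fit was tested on simulated data. Lists and complexes were described by counts and medians, with no test. The genes named were, for each complex, the 3 of lowest p, the brightest and dimmest and the largest difference each way, with the catalytic subunits, the isoform pairs, the 2 of lowest p of each related list and 5 biogenesis regulators; other genes, among them Cox5b, Cox7c, Ndufc2, Atp5po, Atp5mc2 and Atp5mc3, were chosen after their values were seen. Members and lists were chosen with earlier results of these data known. Alternatives tried were a replicate block, repeated quantile normalisation, median centring, a filter on dim rows, a trended robust variance, the mean of a gene's rows, all rows, other member definitions and leaving out each array. Python 3.11.15 with matplotlib 3.10.9 drew the figures.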

Additional observations from a re-analysis of the deposited data

How the results depend on the processing

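The number of genes called over all genes was 112, and it was 225 with dim rows left out, 313 with an intensity trend and robust moderation, 50 with the replicate number as a block and 33 to 108 without 1 array. The number of members called was 0, and it was 3, 6 and 0 under the first 3 of these, 1 with each array centred on its median, and 0 without any 1 array. The labels do not say that the replicate numbers pair the rats. Same-numbered arrays correlated in their deviations from the group means at 0.01, -0.12 and -0.15 over all genes. Arrays of unlike number ran from -0.06 to 0.17, and no sham array correlated best with its own number. Deviations within a group of 3 arrays are not independent, so this check cannot exclude a pairing or a shared batch. The median difference of the members stayed between -0.062 and 0.026 when 1 array was left out, and that of complex I between -0.055 and 0.049, both lowest without sham rat 3. Centring the arrays moved the median of all genes from 0.05 to 0.02 and that of the members from 0.01 to -0.02. At an unadjusted limma p under 0.05, centring gave 3 members higher and 13 lower, beside 8.29% and 6.32% of all genes. The array of DJB rat 1 had the highest median of all rows, 6.19. Without it, 4 members were higher and 11 lower at that p, beside 6.57% and 5.98% of all genes. The share of higher genes among those called was 50.9%, and it was 42.1% with centring, 60.4% with an intensity trend and robust moderation, and 35.2% to 69.7% without 1 array.

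Of 57 named members, 38 kept their sign in every alternative. Among settings that keep all arrays, those that changed sign were Atp5f1c at -0.023 with centring and -0.016 with quantile normalisation, Cox6a2 at -0.013 and -0.018 under the same settings, Ndufs7 at -0.0059 with centring, and, with the mean of a gene's rows, Atp5mc3 at -0.023 and Atp5pd at 0.0043. Without 1 array, ranges across 0 were -0.027 to 0.021 for Atp5f1b, -0.048 to 0.058 for Atp5f1c, -0.038 to 0.19 for Atp5pf, -0.12 to 0.015 for Cox4i1, -0.33 to 0.011 for Cox4i2 and -0.010 to 0.063 for Cox6a2. They were also -0.077 to 0.022 for Ndufaf4, -0.049 to 0.17 for Ndufs3, -0.021 to 0.089 for Ndufs7, -0.074 to 0.033 for Sdha and -0.10 to 0.15 for Uqcrb. Among genes chosen after their values were seen, they were -0.13 to 0.012 for Atp5pd, -0.012 to 0.11 for Atp5pb, -0.0023 to 0.093 for Atp5if1, -0.18 to 0.071 for Atp5me, -0.062 to 0.045 for Atp5mc2, -0.021 to 0.14 for Ndufa11 and -0.18 to 0.022 for Ndufs6-ps1. In 4 of 11 members with several rows, the rows differed in sign. Dim rows limit the values of the restricted complex IV forms.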

Other observations

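Pyruvate dehydrogenase, which feeds carbon from sugar into the TCA cycle, and the cycle itself supply the chain with electrons. Together with the pyruvate carboxylase gene Pc, they were measured for 16 genes. Of these, 12 had groups that did not overlap (75.0%, beside 21.1% of all genes) and 9 had an unadjusted limma p under 0.05 (56.3%, beside 14.3% of all genes), while 0 passed the adjusted threshold. All 5 pyruvate dehydrogenase genes measured were higher after DJB, beside 61.7% of all genes. Pdhb differed by 0.48 ± 0.12 (SE), Pdha1 by 0.35 ± 0.09, Pdhx by 0.25 ± 0.10, Dld by 0.22 ± 0.10 and Dlat by 0.21 ± 0.11. Pdha1, the catalytic alpha subunit, lay at 10.18, 10.25 and 10.09 in sham and 10.50, 10.54 and 10.54 after DJB.

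Enzymes of the cycle went both ways. Mdh2, malate dehydrogenase, lay at 12.92, 12.89 and 12.93 in sham and 12.73, 12.41 and 12.55 after DJB, a difference of -0.35 ± 0.11 (SE). Citrate synthase, Cs, lay at 11.11, 11.00 and 10.95 in sham and 10.83, 10.73 and 10.73 after DJB, a difference of -0.25 ± 0.09 (SE). Idh2 (-0.24 ± 0.09), Ogdh (-0.22 ± 0.09) and Suclg1 (-0.20 ± 0.09) were lower too, without overlap, while Idh3b, a subunit of the NAD-dependent isocitrate dehydrogenase, was higher at 0.26 ± 0.09. These genes beyond Pdhb and Pdha1 were picked after their values were seen. Pc differed by 0.02 ± 0.12 (SE), with overlap (limma adjusted p = 0.960). Limma adjusted p-values of the other genes named here ran from 0.138 to 0.436.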
